A study of Mus musculus with 24 samples.

Results

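Mkx, Epha3, Slitrk6, Lmcd1, Synpr, Setbp1, Abi3bp, Rasl11b, Pla2g4a and Ralgps2 are 10 of the 24717 genes measured in the urogenital sinus (UGS) of mouse embryos. They were chosen by 2 sets of measured ratios, as genes whose RNA was higher in both: female UGS after 12 h of androgen against vehicle, and male against female UGS. Those ratios are therefore given as a description, without a test. The ratios after 6 h of androgen took no part in the choice and were tested. The spread in that test came from all 12 pairs of pools measured, among them those that chose the genes. The test is therefore not fully independent of the choice.

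The UGS is the embryonic tube of endoderm and mesenchyme from which the prostate buds in males when androgen is present. All embryos were C57/Bl6J. In the 6 h and 12 h comparisons, the first group was the UGS of female embryos whose mothers had been given 50 mg/kg dihydrotestosterone (DHT, the potent androgen made from testosterone) at 16 days post conception (dpc), and the other was the UGS of female embryos from vehicle-treated mothers, which the sample names call NoDrug. For the sexes, the UGS of male embryos was set against that of their female littermates at 17.5 dpc, both unmanipulated. The labels also call that comparison a 48 h point. Accessory ducts were dissected away and embryos were sexed by their gonads. Each RNA sample was a pool from different embryos, so 1 pool is 1 replicate. There were 4 pairs of pools at 6 h, 3 at 12 h and 5 of males with females. Each pair was hybridised directly on a 2-colour Agilent whole mouse genome array and again with the dyes exchanged, which gave 24 arrays. All values below are log2 ratios averaged over the 2 dye orientations of a pair, unless a level is named. Lmcd1 in replicate 1 of the males and females is the exception among the main probes: its spot on the swapped array was left out as an outlier, so its ratio rests on 1 array. A positive ratio means more RNA in the DHT pool than in its vehicle pool, or in the male pool than in its female pool.

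Androgen acts through the androgen receptor, a ligand-activated transcription factor that in the UGS is best known for its action in the mesenchyme, which then signals to the epithelium to bud. The 10 genes belong to no single pathway. Mkx, Setbp1 and Lmcd1 encode nuclear regulators, Epha3 and Slitrk6 cell-surface proteins, Synpr a vesicle protein, Abi3bp a matrix protein, and Rasl11b, Ralgps2 and Pla2g4a intracellular signalling proteins.

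The members were represented by 18 probes, of which 13 carried the member's own name in the files. Mkx was listed under the clone name 9430023B20Rik and was found through its RefSeq accession. The 3 Abi3bp probes were listed as D930038M13Rik, and the brightest Ralgps2 probe as 2210408F11Rik; both are synonyms of those genes in RefSeq. The label's alternative name Irxl1 was not needed. Of the 18 probes, 15 were well above background on all 24 arrays and 3 were too dim for the filter, and the brightest probe of each gene (its main probe) stood for the gene. On each array 72.7% to 86.1% of probes were well above background in at least 1 dye. No saturated spot was seen on any of the main probes. Of the markers listed to check the tissue, 9 were well above background on all 24 arrays.

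Promoter windows from RefSeq (build GRCm38.p6, 250 bases before a transcription start and 50 after) were read for 7 of the members, 10 windows in all. They are shown because the members were selected for higher RNA after 12 h of androgen and in males. Windows of Mkx and Setbp1 are not reported here and Abi3bp had none, so the counts of members' windows leave these genes out. The androgen-receptor half-site AGAACA was searched on either strand. It occurred in 1 of the 10 windows, at a start of Pla2g4a, 221 bases before the start, while 19.0% of all 32851 windows of that length held it. The full palindrome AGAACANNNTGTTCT occurred in 0 of the 10 windows and in 3 of the 32851 (0.00913%). The windows of the 2 cell-surface genes, of the gene that changed at 6 h (Synpr) and of the start that held the half-site follow. Each is written 5′ to 3′ on the coding strand, which reads as the RNA. Capitals mark the half-site and, as a single letter, the annotated start.
Epha3, chr16:63864126-63864425, minus strand: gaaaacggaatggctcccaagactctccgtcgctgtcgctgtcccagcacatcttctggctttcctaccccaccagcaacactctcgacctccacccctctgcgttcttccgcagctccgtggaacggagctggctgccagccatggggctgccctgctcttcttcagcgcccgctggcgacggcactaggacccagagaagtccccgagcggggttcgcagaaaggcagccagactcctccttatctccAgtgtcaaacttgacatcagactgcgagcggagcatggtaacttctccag
Slitrk6, chr14:110755100-110755399, minus strand: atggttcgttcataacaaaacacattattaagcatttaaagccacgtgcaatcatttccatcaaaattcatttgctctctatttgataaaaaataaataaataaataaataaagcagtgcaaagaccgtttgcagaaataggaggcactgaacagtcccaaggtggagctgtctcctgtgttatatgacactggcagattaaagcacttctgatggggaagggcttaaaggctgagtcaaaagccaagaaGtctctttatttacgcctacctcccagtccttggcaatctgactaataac
Synpr, chr14:13284530-13284829, plus strand: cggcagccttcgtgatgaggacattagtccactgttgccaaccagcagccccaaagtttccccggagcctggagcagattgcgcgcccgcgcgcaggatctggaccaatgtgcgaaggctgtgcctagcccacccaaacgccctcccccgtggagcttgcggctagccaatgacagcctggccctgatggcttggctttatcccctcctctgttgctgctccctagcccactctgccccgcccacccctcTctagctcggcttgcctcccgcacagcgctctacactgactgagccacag
Pla2g4a, chr1:149922390-149922689, minus strand: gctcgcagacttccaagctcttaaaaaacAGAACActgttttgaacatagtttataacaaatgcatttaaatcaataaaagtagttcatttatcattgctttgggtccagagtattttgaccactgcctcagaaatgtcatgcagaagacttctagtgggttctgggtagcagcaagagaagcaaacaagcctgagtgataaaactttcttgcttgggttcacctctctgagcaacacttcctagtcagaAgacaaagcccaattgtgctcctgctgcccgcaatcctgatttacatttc
The windows differed in base composition. Epha3 and the Synpr start shown had 18 and 16 CpG dinucleotides, while Slitrk6 had 4 and the Pla2g4a start shown had 2, against a median of 7 over all windows. A motif match is a description of these letters, and no binding was measured.

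At 6 h, the only comparison open to a test, 1 of the 10 genes changed. Synpr, which encodes synaptoporin, a membrane protein of synaptic vesicles, was higher in DHT than in vehicle pools (log2 ratio 0.27, SE 0.05, 95% interval 0.16 to 0.37, limma adjusted p = 0.0178, n = 4 pairs), where 0.494% of all genes passed as higher. None of the 10 passed the test as lower, where 1.17% of all genes did, although 2, Epha3 and Rasl11b, had unadjusted p below the threshold. Over all genes, 1.67% passed the test at 6 h in either direction (limma with Benjamini-Hochberg adjustment over 24717 genes, threshold 0.05) and 14.3% had an unadjusted p below 0.05, against 3 of the 10 here. The median ratio of the 10 was −0.03, and that of all genes 0.007.

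The Synpr ratios at 6 h were 0.32, 0.22, 0.25 and 0.29 in the 4 pairs. Its level ran from 9.16 to 9.29 in the DHT pools and from 8.92 to 8.97 in the vehicle pools, so the 2 groups did not overlap. It was the 1 member of 10 whose levels did not overlap at 6 h; over all genes, 3.50% were higher without overlap at 6 h. The size of the Synpr ratio depended on the dye: the mean was 0.46 on the arrays without dye swap and 0.08 on the swapped arrays, and both arrays were above 0 in each of the 4 pairs. The call was lost when any of the 4 pairs at 6 h was left out (limma adjusted p 0.0507 to 0.141) and with the swapped arrays alone (adjusted p = 0.384). It was also lost in 5 other settings of the 26 tried, including each comparison fitted alone (limma adjusted p = 0.0502).

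The remaining 9 genes did not pass the test at 6 h, which does not show that they were unaffected. Epha3, an ephrin-A receptor tyrosine kinase, had ratios of −0.08, −0.58, −0.18 and −0.18 (fit −0.26, 95% interval −0.44 to −0.07, adjusted p = 0.166). Mkx, the TALE homeobox factor Mohawk, required for tendon collagen fibres in the mouse, had ratios of −0.04, −0.53, −0.15 and −0.04 (fit −0.19, 95% interval −0.41 to 0.03, adjusted p = 0.433). For both genes the pair of replicate 2 lay far below the other pairs. Rasl11b, an atypical small GTPase related to Ras, had ratios of −0.05, −0.14, −0.21 and −0.06 (fit −0.12, 95% interval −0.22 to −0.01, adjusted p = 0.275). These 3 were the members with all 4 ratios below 0; over all genes, 11.8% were below 0 in every pair at 6 h.

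The other 6 genes stayed near 0 at 6 h, and their adjusted p ran from 0.702 for Abi3bp to 0.999 for Lmcd1. The 95% interval was −0.14 to 0.11 for Slitrk6, −0.15 to 0.14 for Lmcd1, −0.11 to 0.16 for Setbp1, −0.23 to 0.06 for Abi3bp, −0.13 to 0.05 for Pla2g4a and −0.09 to 0.11 for Ralgps2. With the swapped arrays alone, Epha3 (−0.30, limma adjusted p = 0.0397) and Rasl11b (−0.31, limma adjusted p = 0.00142) passed as lower at 6 h and Synpr did not pass. In that setting 3144 genes passed at 6 h in either direction, against 412 in the main setting. Over all genes, the dye orientations of a pair ran against each other at 6 h, with correlations from −0.5 to −0.05. The part of the dye in the Epha3 and Rasl11b calls was not tested, so nothing is read from those calls.

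The 6 h pools differed in other RNAs as well. The vehicle pools of replicates 2 to 4, labelled as female embryos, had more Y-linked RNA than their DHT pools: the ratio of Eif2s3y, a Y-linked translation factor gene, was −0.04, −2.38, −1.25 and −1.58 in the 4 pairs, and that of Ddx3y, a Y-linked RNA helicase gene, was −0.07, −1.74, −0.93 and −0.97. Replicate 2, with the lowest Y-linked ratios, was also the pair in which Mkx and Epha3 were lowest (Mkx level 8.54 in the DHT pool and 9.06 in the vehicle pool, the highest of the 4 vehicle pools). This was not particular to those 2 genes. The mean over the 10 members was lowest in replicate 2 (−0.16, against 0.04, −0.01 and −0.02 in replicates 1, 3 and 4), and so was Synpr (0.22). The other Y-linked genes varied less, with −0.26, −0.52, −0.33 and −0.26 for Kdm5d and −0.20, −0.45, −0.20 and −0.16 for Uty. All 4 Y-linked genes passed the limma test as lower at 6 h, where 1.17% of all genes did. As a scale, the Eif2s3y ratio of males over females ran from 2.14 to 2.88. Xist, far lower in male than in female pools (−5.91 to −4.99), had ratios of −0.35, 1.07, 0.22 and −0.13 at 6 h. In replicate 1, where Eif2s3y and Ddx3y were near 0, Mkx was −0.04, Epha3 was −0.08 and Synpr was 0.32. That pair is 1 replicate, so no test is read from it alone. The epithelial marker list was also lower in the DHT pools at 6 h, with a mean ratio of −0.53, −0.42, −0.12 and −0.01 over its 20 genes. The part of the sex-linked and of the epithelial differences in the members' ratios was not tested.

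**Figure D1:**
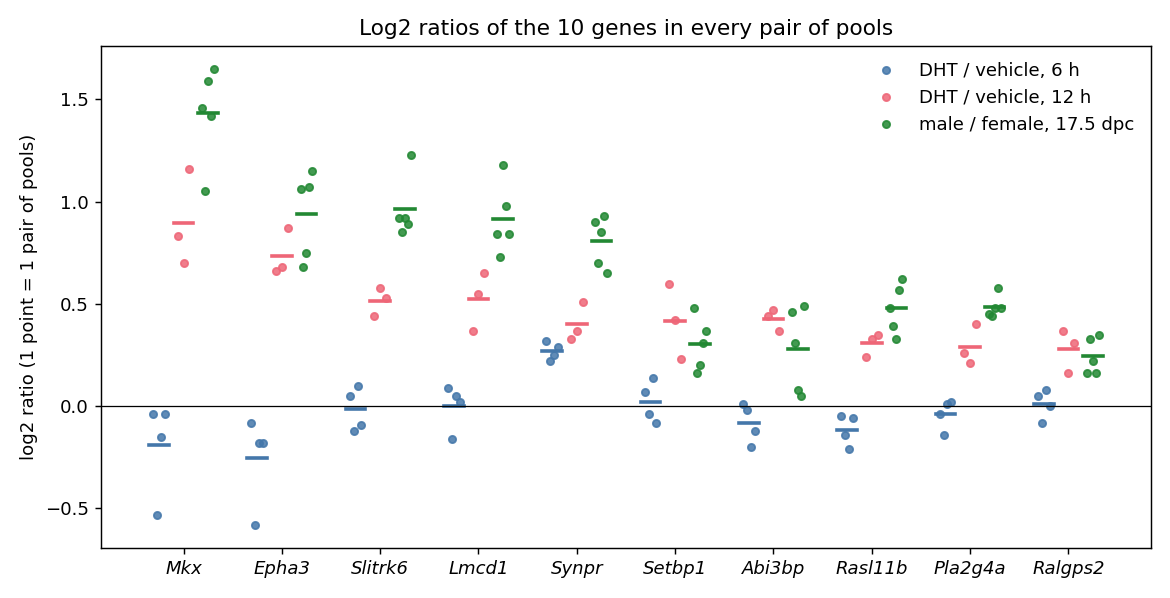
Log2 ratio (y axis) of the main probe of each of the 10 genes (x axis); 1 point is 1 pair of pools, the mean of its 2 dye-swapped arrays, and the bar is the mean. At 6 h (DHT over vehicle, 4 pairs) the Synpr points lie at 0.22 to 0.32 and the lowest points are those of Mkx (−0.53) and Epha3 (−0.58) in replicate 2, while all points at 12 h (DHT over vehicle, 3 pairs) and of males over females (5 pairs) lie above 0.

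After 12 h of DHT, all 10 genes were above 0 in all 3 pairs, where 16.8% of all genes were, and their median ratio was 0.42 against 0.002 over all genes. All 10 were past the threshold as higher, where 0.113% of all genes were. The members were taken from those genes, so nothing is read from that count or from the signs at 12 h and between the sexes. Between male and female pools the 10 were again above 0 in all 5 pairs, where 7.85% of all genes were, with a median of 0.65 against 0.001 over all genes, and 3.72% of all genes were past the threshold as higher. In all, 19 genes (0.0769%) were higher in both comparisons, of which 10 are the members and 9 are not. Those 9 are Nt5e, Gadd45g, Wif1, AK046642, Lrrk1, Klf15, Col4a6, Col4a5 and Acot1, named after their values were seen. The members just inside the threshold at 12 h were Setbp1, Abi3bp, Rasl11b and Ralgps2, each with an adjusted p of 0.0498, and the nearest genes outside were Arhgef26 (ratio 0.31, adjusted p = 0.0512) and Glul (0.36, adjusted p = 0.0584). That count of 10 rested on every pair at 12 h and on replicate 4 at 6 h: leaving any 1 of these 4 pairs out gave 0 of the 10 past the threshold in limma, where all 10 had an unadjusted p below 0.05 (14.1% of all genes with every pair in), a count that the choice of genes fixes and from which nothing is read, and leaving out any other pair gave 4 to 8.

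Among the nuclear regulators, Mkx had the highest ratios of the 10 genes in each comparison that chose them. Its ratios were 0.83, 0.70 and 1.16 at 12 h (mean 0.90 ± 0.24, SD, n = 3) and 1.46, 1.05, 1.59, 1.42 and 1.65 between the sexes (mean 1.43 ± 0.23, SD, n = 5). The fitted fold was 1.86 at 12 h and 2.70 between males and females, ranks 11 and 21 from the top of 24717 genes. Its level was 8.93, 8.80 and 9.27 in the DHT pools at 12 h, against 8.10, 8.10 and 8.11 in the vehicle pools. In the male pools it ran from 8.91 to 9.53, against 7.66 to 7.88 in the female pools. Neither pair of groups overlapped.

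Lmcd1, a LIM-domain cofactor that restrains GATA6, had ratios of 0.37, 0.55 and 0.65 at 12 h (mean 0.52 ± 0.14, SD, n = 3). Between the sexes its ratios were 0.84, 0.73, 1.18, 0.98 and 0.84 (mean 0.91 ± 0.17, SD, n = 5), all above those at 12 h. Setbp1, which encodes a binding partner of the phosphatase inhibitor SET, ran the other way in size, with 0.60, 0.42 and 0.23 at 12 h (mean 0.42 ± 0.19, SD, n = 3) and 0.48, 0.16, 0.20, 0.31 and 0.37 between the sexes (mean 0.31 ± 0.13, SD, n = 5). Its 3 ratios at 12 h spread widely and overlapped those between the sexes.

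Of the cell-surface genes, Epha3 had ratios of 0.66, 0.68 and 0.87 at 12 h (mean 0.74 ± 0.11, SD, n = 3) and 1.06, 0.68, 0.75, 1.07 and 1.15 between males and females (mean 0.94 ± 0.21, SD, n = 5). Its level was 8.49, 8.65 and 8.99 in DHT pools at 12 h, against 7.83, 7.97 and 8.12 in vehicle pools, and ran from 8.35 to 9.11 in male pools, against 7.61 to 7.96 in female pools. Slitrk6, a leucine-rich repeat membrane protein known for its role in inner ear innervation, was the steadiest of the larger ratios: 0.44, 0.58 and 0.53 at 12 h (mean 0.52 ± 0.07, SD, n = 3). Between the sexes it had 0.92, 0.85, 0.92, 0.89 and 1.23 (mean 0.96 ± 0.15, SD, n = 5), with replicate 5 above the other 4. The lowest of these lay above the highest ratio at 12 h.

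Synpr had ratios of 0.33, 0.37 and 0.51 at 12 h (mean 0.40 ± 0.09, SD, n = 3) and 0.90, 0.70, 0.85, 0.93 and 0.65 between the sexes (mean 0.81 ± 0.12, SD, n = 5). It was the only member above 0 in every pair of all 3 comparisons (12.8% of all genes were so at 6 h), and its ratios at 6 h, 12 h and between the sexes did not overlap. Abi3bp, a secreted matrix protein that binds the ABI3 adaptor, had 0.44, 0.47 and 0.37 at 12 h (mean 0.43 ± 0.05, SD, n = 3). Between the sexes its ratios fell into a high and a low part, at 0.46, 0.31 and 0.49 in replicates 1, 2 and 5, and at 0.08 and 0.05 in replicates 3 and 4. Replicates 3 and 4 were also the pairs with the lowest fibroblast marker ratios, given below; the part of those cells was not tested.

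Among the intracellular signalling genes, Rasl11b had 0.24, 0.33 and 0.35 at 12 h (mean 0.31 ± 0.06, SD, n = 3) and 0.48, 0.39, 0.33, 0.57 and 0.62 between the sexes (mean 0.48 ± 0.12, SD, n = 5). Pla2g4a, the cytosolic phospholipase A2 that releases arachidonic acid, had 0.26, 0.21 and 0.40 at 12 h (mean 0.29 ± 0.10, SD, n = 3). Between the sexes it had 0.45, 0.44, 0.48, 0.58 and 0.48 (mean 0.49 ± 0.06, SD, n = 5), the narrowest spread of the 10 genes. Ralgps2, an exchange factor for the small GTPase RalA, had the lowest mean ratio of the 10 in both comparisons. It had 0.37, 0.16 and 0.31 at 12 h (mean 0.28 ± 0.11, SD, n = 3) and 0.16, 0.33, 0.22, 0.16 and 0.35 between the sexes (mean 0.24 ± 0.09, SD, n = 5).

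For 4 genes, Slitrk6, Lmcd1, Synpr and Pla2g4a, every ratio between the sexes exceeded every ratio at 12 h, and for the other 6 the ranges overlapped. For no gene did the 12 h ratios all lie above those between the sexes. The mean over the 10 genes was 0.45, 0.45 and 0.54 in the 3 pairs at 12 h, and ran from 0.56 to 0.78 in the 5 pairs of males and females. At 6 h it was 0.04, −0.16, −0.01 and −0.02. These differences involve the ratios that chose the genes and were not tested, and age differs between the 12 h and 17.5 dpc pools.

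The 2 dye orientations were read separately as a description. At 12 h and between the sexes the choice of genes used these same arrays, so nothing is read from the counts there. Both arrays of a pair were above 0 in 30 of 30 gene and pair combinations at 12 h and, between the sexes, in 48 of the 49 that had both arrays. The exception was Setbp1 in replicate 2, at 0.35 and −0.03. At 6 h both were above 0 in 8 of 40 and both below 0 in 13 of 40. Over all genes, the correlation of the 2 orientations of a pair, each turned to the same direction, ran from −0.50 to −0.05 at 6 h, from −0.20 to 0.16 at 12 h and from 0.39 to 0.76 between the sexes. At 6 h, then, the 2 orientations ran against each other over all genes in every pair.

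**Figure D2:**
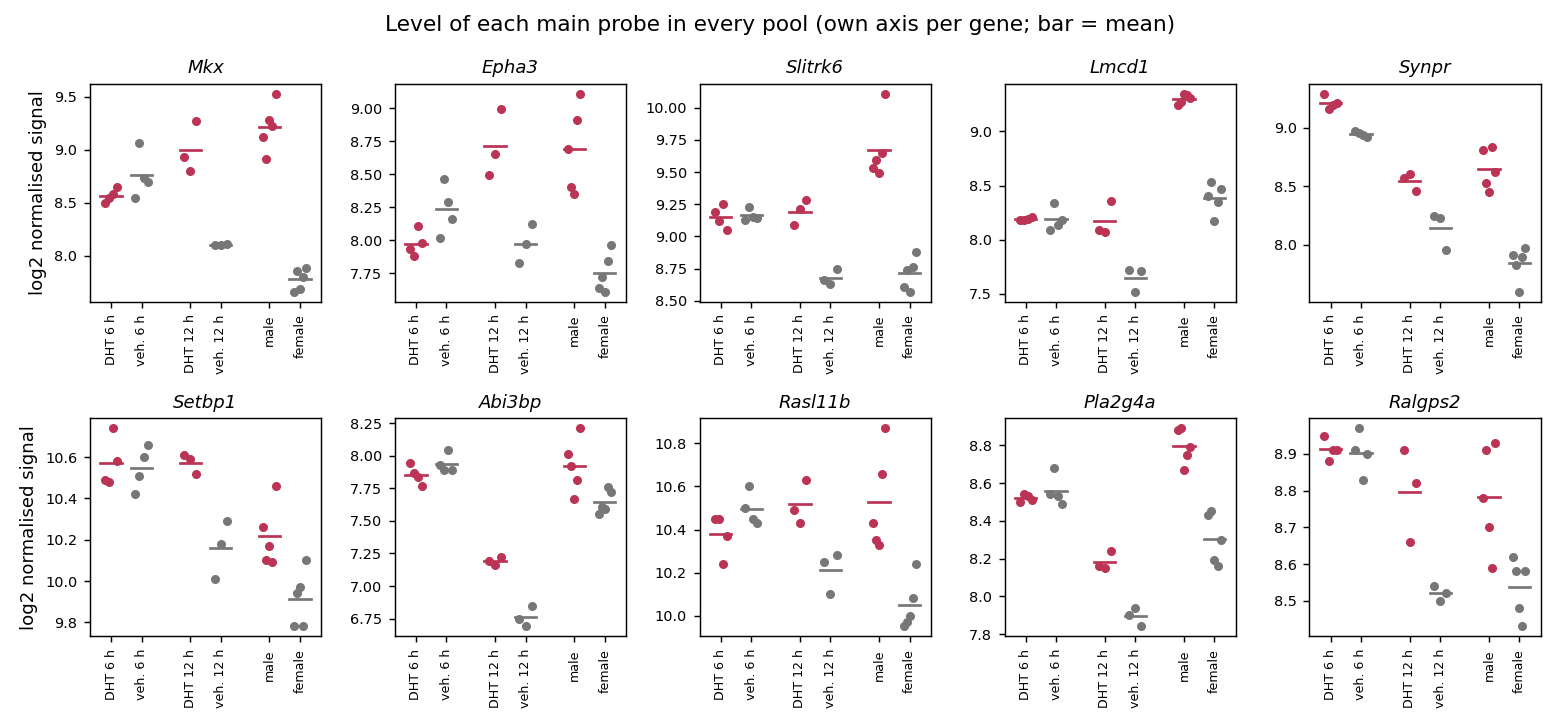
Level of each gene's main probe (y axis, log2 normalised signal, with an axis of its own for each gene) in every pool (x axis: DHT and vehicle, abbreviated veh., at 6 h and 12 h, then male and female); points are pools and bars are means. DHT pools at 12 h lie above their vehicle pools for each of the 10 genes, and at 6 h this holds for Synpr.

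Levels in single pools are given on the log2 signal scale after normalisation between channels. Counts of genes without overlap at 12 h and between the sexes are favoured by the choice of genes, so nothing is read from them. At 12 h the DHT and vehicle levels did not overlap for 10 of 10 genes, where 3.94% of all genes were higher without overlap. Between the sexes they did not overlap for 7 of 10, where 1.76% of all genes were higher without overlap. The exceptions were Setbp1, with 10.09 to 10.46 in male and 9.78 to 10.10 in female pools, Abi3bp, with 7.67 to 8.21 in male and 7.55 to 7.76 in female pools, and Ralgps2, with 8.59 to 8.93 in male and 8.43 to 8.62 in female pools.

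The level in the vehicle pools was lower at 12 h than at 6 h for all 10 genes, with a median difference of −0.51, while over all genes the median difference was −0.03 and 56.4% were lower. In the DHT pools 5 of the 10 were lower at 12 h than at 6 h, where 58.1% of all genes were. The median difference there was −0.01, against −0.05 over all genes. Epha3 and Mkx were the 2 genes whose DHT level at 12 h stood clearly above that at 6 h, by 0.73 and 0.43. Slitrk6, Lmcd1 and Setbp1 had nearly equal DHT levels at the 2 times (differences 0.05, −0.02 and 0.00) and vehicle levels that were lower at 12 h (−0.49, −0.54 and −0.39). Synpr, Abi3bp and Pla2g4a were lower at 12 h in both groups. The choice of genes used the vehicle level at 12 h, and per the labels each comparison was hybridised on a day of its own, so time and day cannot be told apart here and no test was made.

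**Figure D3:**
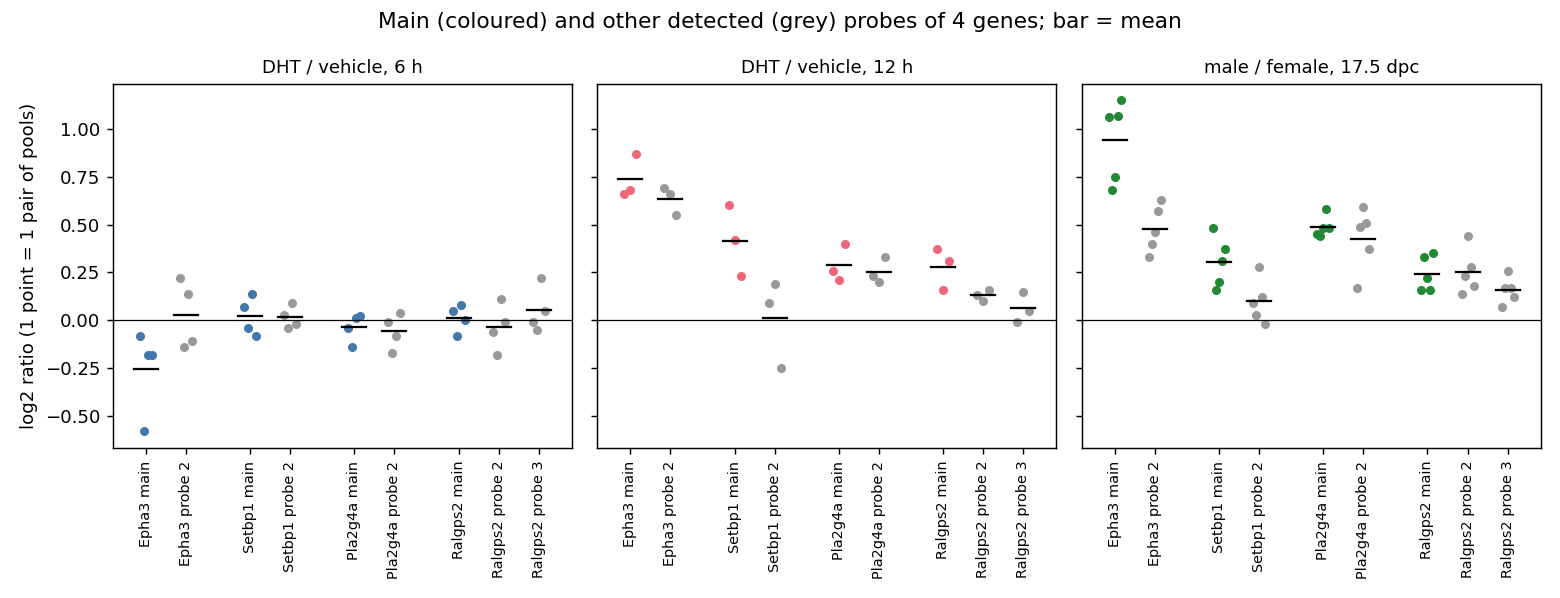
Log2 ratio (y axis) of every detected probe of the 4 genes that have more than 1 (x axis), with the main probe coloured and the others grey, in each comparison; points are pairs of pools and bars are means. The Epha3 and Pla2g4a probes lie close together at 12 h, while the second Setbp1 probe (mean 0.01) and the other Ralgps2 probes (0.13 and 0.06) lie below their main probes.

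Of the 10 genes, 4 had further detected probes, 5 in all. All 5 had a mean ratio above 0 at 12 h and between the sexes, and all 5 were smaller than the main probe at 12 h. The second Epha3 probe read 0.69, 0.66 and 0.55 at 12 h and 0.33, 0.40, 0.46, 0.57 and 0.63 between the sexes, close to its main probe at 12 h and lower between the sexes. At 6 h it read 0.22, −0.14, 0.14 and −0.11, so the 4 negative ratios of the main Epha3 probe were not shared. The second Pla2g4a probe had a mean of 0.25 ± 0.07 (SD, n = 3) at 12 h and 0.43 ± 0.16 (SD, n = 5) between the sexes.

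The second Setbp1 probe disagreed with the main one. It read 0.09, 0.19 and −0.25 at 12 h and 0.09, 0.03, 0.28, 0.12 and −0.02 between the sexes, so that neither comparison had every pair above 0. The Ralgps2 probes that carry that name in the files had means of 0.13 ± 0.03 and 0.06 ± 0.08 (SD, n = 3) at 12 h, below the 0.28 of the synonym-named main probe, and 0.25 ± 0.12 and 0.16 ± 0.07 (SD, n = 5) between the sexes. The Setbp1 value at 12 h therefore rests on 1 probe, and so does the size of the Ralgps2 value. The Ralgps2 probe with a mean of 0.13 was above 0 in all 3 pairs at 12 h. Mkx, Slitrk6, Lmcd1, Synpr, Abi3bp and Rasl11b had no further detected probe to compare. The 3 dim probes, 1 of Synpr and 2 of Abi3bp, were well above background on 2, 3 and 4 arrays and had means between −0.12 and 0.11 in the 3 comparisons. A further probe, AK089119, which the files describe as Eph receptor A3 but do not name Epha3, had means of 0.16 ± 0.28 at 12 h (SD, n = 3) and 0.27 ± 0.29 between the sexes (SD, n = 5).

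Relatives and pathway partners of the members were counted in 9 lists of 161 measured entries. At 12 h, 0 of the 161 entries passed the limma test, where 0.287% of all genes did. An unadjusted p below 0.05 was seen for 26 of them, where 14.1% of all genes had one. At 6 h, 5 of the 161 entries passed, where 1.67% of all genes did. Efna2, an ephrin-A ligand, was lower (−0.25, adjusted p = 0.0322), as were Set (−0.28, adjusted p = 0.0222), the SET protein gene itself, and Hoxa10 (−0.32, adjusted p = 0.0108), a posterior homeobox gene. Fbln1, a matrix fibulin, was lower too (−0.28, adjusted p = 0.0417), and Alox5ap, the 5-lipoxygenase activating protein gene, was higher (0.17, adjusted p = 0.0414).

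Between males and females, where 7.58% of all genes passed in either direction, 35 of the 161 entries did, 8 as higher and 27 as lower. Of 33 genes of the Mkx family and tendon list, 1 was higher and 10 were lower, with a list median of −0.11. The largest were Scx, the tendon factor scleraxis (−0.82, adjusted p = 7.9e-05), and the collagen genes Col1a1 (−0.67, adjusted p = 0.0121), Col14a1 (−0.66, adjusted p = 0.0197) and Col3a1 (−0.43, adjusted p = 0.0401). Of 12 EphA and ephrin-A genes, 0 were higher and 2 lower, the receptors Epha5 (−0.52, adjusted p = 0.00096) and Epha7 (−0.42, adjusted p = 0.00304). Of 15 Slitrk-related genes, 0 were higher and 2 lower, Slitrk1 (−0.33, adjusted p = 0.00121) and the neurotrophin receptor Ntrk2 (−0.45, adjusted p = 0.000333). In these 3 lists, 1 gene passed the limma test as higher in males and 14 as lower. An unadjusted p below 0.05 was seen for 5 of the 12 EphA and ephrin-A genes and 6 of the 15 Slitrk-related genes. Over all genes, 4568 of 24717 had one between the sexes.

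Of 18 matrix genes listed with Abi3bp, 1 was higher in males and 6 were lower. The higher one was Efemp1, fibulin-3 (1.31, adjusted p = 3.07e-07), and the lower ones included Fbln1 (−0.52, adjusted p = 5.79e-05), the elastin gene Eln (−0.43, adjusted p = 0.0038) and Mfap4 (−0.42, adjusted p = 0.00172). Of 26 phospholipase and eicosanoid genes, 3 were higher and 3 lower. The largest were Hpgd, which inactivates prostaglandins (0.65, adjusted p = 0.000161), Ptges, a prostaglandin E synthase (0.53, adjusted p = 0.00013), the prostaglandin receptor Ptger3 (−0.41, adjusted p = 0.00101) and Alox12, a lipoxygenase (0.39, adjusted p = 0.00157). Of 13 LIM-domain and calcineurin genes, Csrp1 was higher (0.44, adjusted p = 0.047) and Csrp2 lower (−0.49, adjusted p = 0.0122).

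Of 17 Ras-like and Ral genes, Rasd1 was higher (0.38, adjusted p = 0.000216), and Rerg (−0.45, adjusted p = 0.000404) and Ralgds (−0.30, adjusted p = 0.002) were lower. Of 13 genes around Setbp1, Hoxa10 was higher (0.28, adjusted p = 0.00119) and Myb lower (−0.43, adjusted p = 0.000246). Among the 14 synaptophysin family and synaptic vesicle genes, 0 passed in any of the 3 comparisons by limma, with 0, 0 and 2 at an unadjusted p below 0.05 at 6 h, 12 h and between the sexes.

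Markers of the cell types that the dissected UGS could hold were followed in the same pairs. In bulk pools, fewer cells of a type and less RNA per cell cannot be told apart. The 20 epithelial markers, all well above background on 24 arrays, had mean ratios of −0.04, 0.34 and 0.54 at 12 h. None of the 20 passed the limma test there, and 10 had an unadjusted p below 0.05, where 14.1% of all genes did. Their summed level (log2 of the summed signal) ran from 15.21 to 15.88 in DHT pools and from 15.23 to 15.31 in vehicle pools at 12 h. The members' means in the same pairs were 0.45, 0.45 and 0.54. Between the sexes the epithelial means were 0.08, 0.40, 0.52, 0.38 and 0.23. Of the 20 markers, 9 passed as higher, where 3.72% of all genes did, and 0 as lower. The members' means in the same pairs were 0.72, 0.56, 0.66, 0.70 and 0.78. The part of epithelial cells in the members' ratios was not tested.

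The 12 fibroblast and mesenchyme markers had mean ratios of 0.07, −0.03 and 0.04 at 12 h and of −0.18, −0.02, −0.47, −0.61 and −0.08 between the sexes. Of the 12, 5 passed as lower in males, where 7.58% of all genes passed in either direction. The summed level of these markers ran from 16.26 to 17.36 in male and from 17.17 to 17.35 in female pools. The 15 skeletal muscle markers had mean ratios of 0.00, 0.28 and 0.52 at 12 h and of 0.17, −0.38, 1.08, −0.10 and 0.18 between the sexes. Of the 14 neuron markers, listed because Synpr is a synaptic gene, none passed in any comparison by limma. Their mean ratio was 0.54, 0.11, −0.01 and −0.10 at 6 h, beside Synpr ratios of 0.32, 0.22, 0.25 and 0.29, and −0.12, −0.20 and −0.14 at 12 h, beside 0.33, 0.37 and 0.51. The 10 smooth muscle markers were below 0 in the mean of all 5 pairs of males and females (−0.12, −0.09, −0.04, −0.55 and −0.22), with 4 of 10 lower. The 11 immune markers had a mean above 0 in all 4 pairs at 6 h (0.31, 0.23, 0.13 and 0.09). Adgre1 and Ptprc passed as higher there, where 0.494% of all genes did. The immune mean was below 0 in all 5 pairs of males and females, with 4 of the 11 lower and 1 higher. The summed level of the immune markers at 6 h ran from 11.78 to 11.99 in DHT pools and from 11.57 to 11.70 in vehicle pools. The part of any of these cell types in the members' ratios was not tested.

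**Figure D4:**
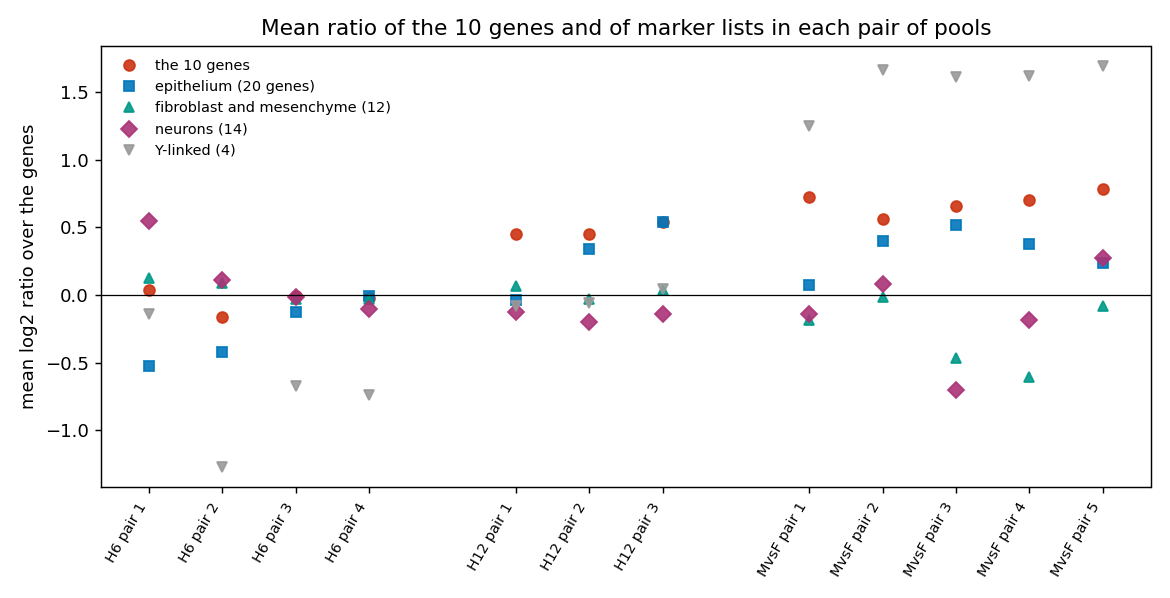
Mean log2 ratio (y axis) of the 10 genes and of lists of marker genes in each pair of pools (x axis: H6 and H12 are DHT over vehicle at 6 h and 12 h, MvsF is male over female); symbols show the lists, with the number of genes in brackets. The mean of the 10 genes lies between 0.45 and 0.54 at 12 h and between 0.56 and 0.78 in MvsF, while the epithelial mean varies from −0.04 to 0.54 at 12 h.

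The genes whose ratios were most like the members' mean over the 12 pairs were found among 2989 genes with a complete and sufficiently variable profile. The 8 with the highest Pearson r were Gata3 (0.980), Col4a6 (0.976), Col4a5 (0.974), Cbr2 (0.969), Wif1 (0.964), Nt5e (0.960), Manba (0.958) and Efemp1 (0.958). The 12 pairs fall into 3 comparisons that differ in their mean, so r mostly records the step between comparisons and is given with no p. Gata3, a zinc-finger factor of the Wolffian duct and epithelium, differed from the members at 6 h, where it was lower in DHT pools (−0.56, −0.64, −0.41 and −0.37, adjusted p = 0.00228). Col4a6, a basement membrane collagen gene, was also lower at 6 h (−0.34, adjusted p = 0.0366), and the other 6 did not pass at 6 h, with adjusted p from 0.0896 to 0.769. Of the 8, Col4a6, Col4a5, Wif1 and Nt5e were past the threshold as higher at 12 h, and all 8 were between the sexes.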

How the data were processed

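RNA from pools of embryonic mouse UGS was measured on 24 arrays, 8 at 6 h, 6 at 12 h and 10 of males against females. The authors deposited scanner output of Agilent Feature Extraction 7.5.1 (per the file headers): for each spot, the intensity and local background of both dyes and a log10 ratio of Cy5 over Cy3. The deposited series matrix holds a log2 ratio per probe and array; how it was centred is not given in the sources used here, and it was read only as an alternative.

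Background was corrected by normexp with an offset of 50 (limma 3.58.1 in R 4.3.3; files read with data.table, version 1.17.8) and each array normalised by loess, with control spots at no weight and outlier flags set to missing. Ratios of swapped arrays had their sign turned, and the dye-swapped arrays of a pair were averaged to 12 replicates. Probes entered the fit if either dye stood well above background on 6 or more of the 24 arrays (35477 of 41174), and the brightest probe stood for a gene (24717 genes). Names came from RefSeq by accession for 21445 probes, symbol for 5431 and synonym for 4636, and 9662 kept the file's name. Limma fitted all 12 replicates with 1 coefficient per comparison and Benjamini-Hochberg adjustment over all genes (threshold 0.05). The fit was tested on simulated data. Levels came from loess followed by Aquantile normalisation and are not compared between probes. The number of arrays limits the precision, and p-values measure the spread between pools.

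The members and all lists were chosen with earlier results of these data known. The genes named besides the members are up to 4 per list past the threshold by size of ratio, and the 8 most alike by Pearson r among genes with an SD of at least 0.2; any other named gene was chosen after its values were seen. Alternatives covered background correction, centring, dye orientation, probe summary, filters, the variance prior, the series matrix, the scanner ratios, the replicate block and each pair left out. Single values of some listed genes are not reported here.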

Additional observations from a re-analysis of the deposited data

Results flagged for a closer look

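Mkx, Epha3 and Rasl11b had every pair at 6 h below 0 and every pair of the other comparisons above 0. The log2 ratio at 12 h minus that at 6 h was 1.09 for Mkx, 0.99 for Epha3 and 0.42 for Rasl11b. The ratio between the sexes minus that at 6 h was 1.62 for Mkx, 1.20 for Epha3 and 0.60 for Rasl11b. These differences were not tested, since the genes were chosen for the later ratios, and the second Epha3 probe was not below 0 in every pair at 6 h.

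The Slitrk6 ratio of 1.23 in the male and female pair of replicate 5 stood apart from the other 4 pairs, which lay between 0.85 and 0.92. Chance gives such a gap in about 1 in 20 groups, and 20 groups were examined here (10 genes in the 2 comparisons with 4 or more pairs), so 1 is no more than chance would give.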

How the results depend on the processing

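The main counts were 412 genes and 1 member past the threshold at 6 h, 71 genes and 10 members at 12 h, and 1873 genes and 10 members between the sexes, and 26 other settings were tried. Every member kept a positive ratio at 12 h and between the sexes in all 26. The settings reuse the arrays that chose the genes, which largely fixes that sign, so nothing is read from it. With unswapped arrays only, 3782 genes passed at 6 h and 3186 at 12 h; with swapped arrays only, 3144 and 2 members at 6 h, 1345 and 6 members at 12 h, and 3432 genes between the sexes. With each comparison fitted alone, 8 genes and 0 members passed at 6 h, 0 and 0 at 12 h, and 869 genes between the sexes. Without background correction, with the series matrix and with a trended, robust prior, 0 genes and 0 members passed at 12 h (limma; 3039, 2637 and 3391 genes at an unadjusted p below 0.05, and all 10 members). At 6 h the series matrix gave 702 genes, and the trended, robust prior 0 members. Subtracting local background gave 179 genes at 6 h, and 5 genes and 3 members at 12 h. Averaging a gene's probes gave 270 genes at 6 h. Median centring gave 92 genes and 0 members at 6 h, and 21 genes and 6 members at 12 h; its higher calls were 3 of 92 at 6 h (122 of 412 in the main setting), 18 of 21 at 12 h (28 of 71) and 551 of 1490 between the sexes (920 of 1873). The scanner's log ratios gave 25 genes and 0 members at 6 h, and 47 genes and 6 members at 12 h. The stricter filter on dim probes gave 20 genes and 6 members at 12 h. With replicate 1 alone at 6 h, a setting chosen after seeing the data, 2 genes and 0 members passed at 12 h. The 6 h comparison was then 1 pair, so no count is given for it.

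Leaving out 1 pair at a time gave 13 to 548 genes and 0 to 1 members at 6 h, 0 to 43 genes and 0 to 8 members at 12 h, and 1139 to 1874 genes and 9 to 10 members between the sexes; 1139 was without replicate 4 of the males and females, and the 6 h count was 19, 13, 235 and 232 without replicates 1, 2, 3 and 4 at 6 h. At 12 h the gene count was 0 without any 1 pair at 12 h or replicate 4 at 6 h, and 9 to 43 without any other (limma; 2904 or more genes at an unadjusted p below 0.05). Pairs with the same replicate number in different comparisons correlated from −0.07 to 0.29, not all above 0.1, so the numbers were not taken to pair the pools. With the replicate block (consensus correlation 0.068), 411, 75 and 1882 genes passed, and the members' counts were 1, 10 and 10. The causes of these changes were not tested. The small number of pairs and the dye effects limit the ratios at 6 h and 12 h.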
